A study of Mus musculus with 12 samples.

Results

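The genes described here encode the enzymes of xenobiotic metabolism: cytochromes P450 of the families Cyp2, Cyp3 and Cyp4, UDP-glucuronosyltransferases (Ugt1 and Ugt2), sulfotransferases (Sult1) and glutathione S-transferases of the alpha, mu, pi and theta classes (Gsta, Gstm, Gstp and Gstt). They were chosen by symbol, by a rule that uses no measured value but was set with earlier results of these data known. A protein-coding gene was taken where its symbol starts with Cyp2, Cyp3 or Cyp4 and a letter, with Ugt1 or Ugt2, with Gsta, Gstm, Gstp or Gstt, or with Sult1, and Cyp2s1 was left out. The rule took 120 of the 46603 genes of the count table, in 10 families: 48 Cyp2, 9 Cyp3, 20 Cyp4, 9 Ugt1, 10 Ugt2, 6 Sult1, 4 Gsta, 7 Gstm, 3 Gstp and 4 Gstt genes. Of the 120 enzymes, 27 had no count in any library, 16 of them Cyp2 and 5 Cyp4 genes.

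Cytochromes P450 sit in the membrane of the endoplasmic reticulum and insert oxygen into drugs, plant compounds, steroids and fatty acids, with electrons from P450 oxidoreductase. The transferases then attach glucuronic acid, sulfate or glutathione, and transporters export the product. Enterocytes of the small intestine are known to carry many of these enzymes and meet swallowed compounds before the liver does. Several enzymes of the same families also act on the body's own lipids, such as leukotrienes and products of lipid peroxidation.

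RNA was sequenced in bulk from 4 groups of 3 samples each: TNFdARE ileum, WT ileum, TNFdARE synovium of the ankle and WT synovium of the ankle. TNFdARE mice lack the AU-rich element of Tnf, a stretch of the mRNA that keeps the transcript short-lived, in every cell that carries the allele, and ileitis and arthritis are known in this strain. The WT mice were littermates, and the series gives 3 mice per strain. With 3 samples of each tissue, every mouse may have given both tissues, but the labels tie no ileum sample to a synovium sample, so the contrasts between tissues treat the samples as independent. The labels give no age, sex or zygosity. The samples are called biological replicates, and a p-value given here measures the spread between them.

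The libraries held 14267834 to 16224402 counts each. Levels are given in CPM, the count of a gene scaled to the size of its library, and where a count is 0 a level of up to 3 counts, or 0.185 to 0.210 CPM, is allowed. Tnf, the modified gene, reached 82.5, 17.2 and 47.4 CPM in TNFdARE ileum and 2.64, 1.39 and 1.62 CPM in WT ileum, and 38.5, 32.6 and 28.3 CPM in TNFdARE synovium and 2.14, 2.01 and 1.88 CPM in WT synovium. No library went against its genotype label. Epithelial markers separated the tissues: the 8 markers summed to 13049 ± 1702 CPM in TNFdARE ileum and 16661 ± 624 CPM in WT ileum, against 34.7 ± 6.64 CPM in TNFdARE synovium and 33.8 ± 1.94 CPM in WT synovium (SD, n = 3 each). A pair of ileum libraries stood apart. TNFdARE ileum replicate 2 had the lowest summed level of 8 myeloid markers of its group (5003, 1068 and 2791 CPM in TNFdARE replicates 1, 2 and 3, against 336, 245 and 286 CPM in WT), and WT ileum replicate 2 had several times more Cyp2c55 and Sult1a1 than the other WT ileum libraries. Calls that appear or end without one of them are given below. Synovial fibroblast markers, Prg4 among them, summed to 2224 ± 278 CPM in TNFdARE ileum and 1905 ± 109.5 CPM in WT ileum, against 38648 ± 2529 CPM in TNFdARE synovium and 51168 ± 9645 CPM in WT synovium. Sex-linked transcripts read replicate 3 of every group as female and replicates 1 and 2 as male.

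The families were distributed unequally between the tissues. In the ileum 51 of 120 enzymes had a mean of at least 1 CPM in TNFdARE mice and 52 in WT mice, and in the synovium 29 did in each genotype. All 120 enzymes together made up 2233 ± 586 CPM in TNFdARE ileum and 3382 ± 572 CPM in WT ileum, against 531 ± 61.4 CPM in TNFdARE synovium and 703 ± 18.9 CPM in WT synovium. Cyp4 was the family with the highest sum in the ileum, at 770.2 ± 216 CPM in TNFdARE against 1172 ± 58.5 CPM in WT mice. Ugt2 enzymes, which conjugate steroids, bile acids and drugs, summed to 424 ± 70.5 CPM in TNFdARE against 570.1 ± 49.4 CPM in WT ileum, while the synovium held a single Ugt2 count in all TNFdARE libraries and a single one in all WT libraries. Gstm enzymes summed to levels of the same order in both tissues: 130.1 ± 12.5 CPM in TNFdARE ileum, 111 ± 10.6 CPM in WT ileum, 142 ± 20.7 CPM in TNFdARE synovium and 185 ± 2.23 CPM in WT synovium.

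**Figure D1:**
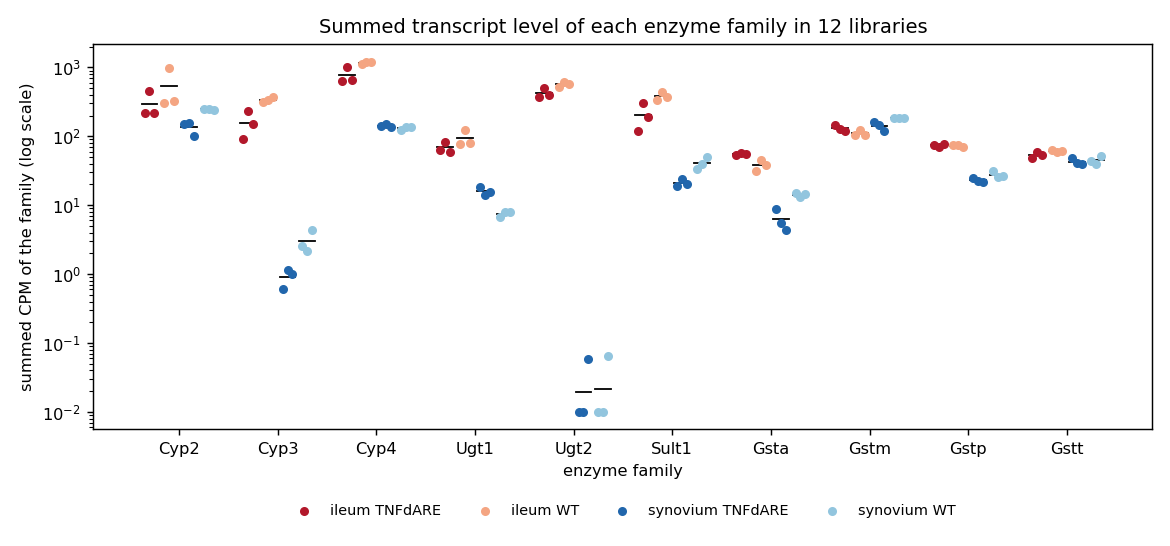
Summed level of each enzyme family in CPM (log axis) by group, with 1 point per library and a line at the mean of 3 libraries. A sum of 0 is drawn at 0.01 CPM. The Cyp3 and Ugt2 points of the ileum lie far above those of the synovium, and the Gstm and Gstt points of all 4 groups lie close together.

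The tissue contrast was tested in a model of all 12 libraries with edgeR's quasi-likelihood F test (two-sided, Benjamini-Hochberg adjustment over all genes tested, threshold 0.05), in which 55 of the 120 enzymes passed the filter on low counts. Of these, 37 were higher in WT ileum than in WT synovium and 13 were lower, where 36.0% and 38.2% of all tested genes were called in these directions. Between the TNFdARE tissues 38 were higher in the ileum and 10 lower, where 35.0% and 31.6% of all genes were called. All 4 tested Ugt2 genes, all 4 Cyp3 genes, all 3 Gsta genes and all 3 Gstp genes were higher in the ileum in both genotypes. A filter that a gene passes through its high tissue favours a difference, so these counts describe where the enzymes are and support nothing further.

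Ugt2b34 (chr5), which made up 89.9% of the Ugt2 counts of the ileum, had 329.6, 449.5 and 358 CPM in TNFdARE ileum and 466, 556 and 522 CPM in WT ileum, and 0 counts in all 6 synovium libraries. Against the floor of 3 counts per library it was at least 2146-fold higher in TNFdARE ileum than in TNFdARE synovium, and at least 2584-fold higher in WT ileum than in WT synovium. Cyp4f40 and Sult1d1, a sulfotransferase known for its action on catecholamines in mice, were likewise at least 768-fold and 936-fold higher in WT ileum than in WT synovium. Cyp4f14, known in mice as a hydroxylase of vitamin E and leukotrienes, was the enzyme with the most reads in WT ileum, while Ugt2b34 had more in TNFdARE replicates 1 and 3. Cyp4f14 had 282, 529.9 and 321 CPM in TNFdARE and 667, 719.5 and 709 CPM in WT mice, and 7 counts in all WT synovium libraries together. Per kilobase of exon, the scale on which genes can be compared, Cyp4f14 had a mean of 289 CPM in WT ileum, followed by Cyp2c55 with 141, Ugt2b34 with 119, Cyp3a13 with 82.7 and Sult1d1 with 75.9. The place of Cyp2c55 rests on WT replicate 2, since in WT replicates 1 and 3 it lay below the other 4. The WT libraries of Cyp3a13 and Sult1d1 overlapped on this scale, and those of Cyp4f14, Ugt2b34 and Cyp3a13 did not.

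In the synovium the leading enzymes were others. Cyp2f2, known in mice for activating naphthalene in the airway, had 4 counts in all TNFdARE ileum libraries together and 3 in all WT ileum libraries, against 72.9, 73.8 and 47.5 CPM in TNFdARE synovium and 122, 118 and 121 CPM in WT synovium. Its ratio of WT ileum to WT synovium was 0.000588 (95% exact counting interval 0.000121 to 0.00172, which covers counting error only). Gstm1, a mu-class transferase, had a mean of 80.002 CPM per kilobase in WT synovium, above Cyp2f2 with 59.5, Cyp2e1 with 28.7 and Sult1a1 with 27.2. The neighbours Cyp2e1 and Sult1a1 overlapped in WT synovium on this scale, and Gstm1 and Cyp2f2 did not overlap with any of the others. The ileum divided its Sult1 reads mainly between Sult1b1 (47.3%) and Sult1d1 (46.1%), while in the synovium Sult1a1, which sulfates phenols, carried 99.5%. Ugt1a6b and Cyp2ab1 were the other strongly synovial enzymes. Ugt1a6b had 1 count in WT ileum and 36 in WT synovium, and 70.9% of its 100-base windows occur in another annotated gene. Cyp2ab1 had 0 counts in WT ileum and 75 in WT synovium.

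**Figure D2:**
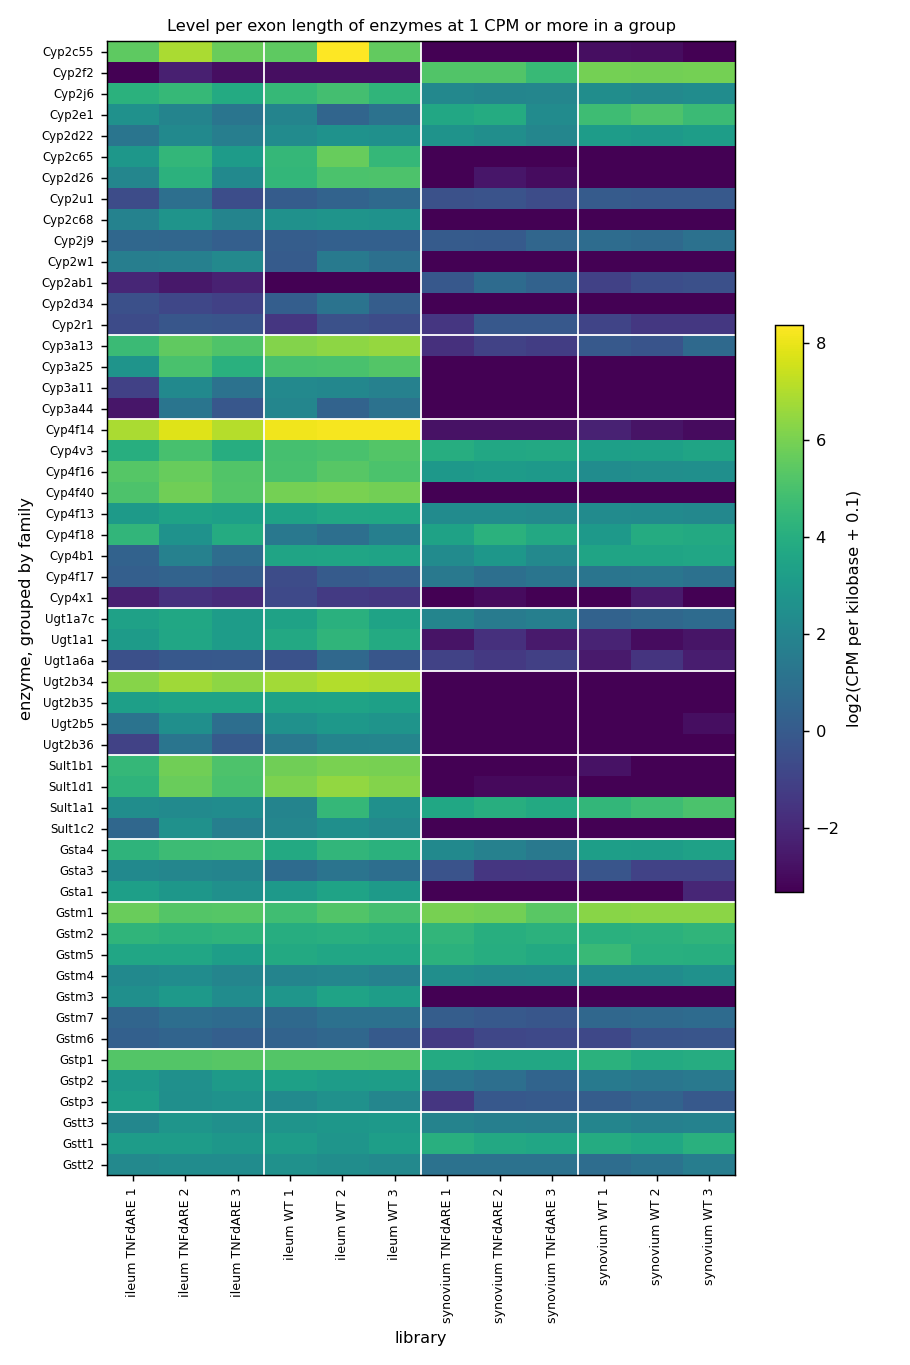
Level of the 54 enzymes with a mean of at least 1 CPM in some group, as log2 of CPM per kilobase of exon plus 0.1, with 1 column per library, 1 row per enzyme and white lines between groups and families. The cells of Cyp3, Ugt2 and Cyp4f14 are bright in the ileum and dark in the synovium, Cyp2f2 shows the opposite, and Gstm1 and Gstm2 are bright in all 12 columns.

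The comparison of TNFdARE with WT ileum asks how the enzymes stand in the inflamed gut. Of 52 enzymes that passed the filter on low counts in the ileum, Cyp4f18 and Gsta3 were higher in TNFdARE ileum, Cyp3a13 and Cyp4b1 were lower, and 48 were not called (edgeR's quasi-likelihood test on the 6 ileum libraries). Among all 15462 genes tested, 4.12% were called higher and 1.57% lower, so 2 of 52 in each direction is near the background. The log2 fold changes had a median of -0.36 over the 52 enzymes and of -0.00 over all genes. TNFdARE and WT libraries did not overlap for 5 enzymes that were higher and 16 that were lower in TNFdARE, where 18.8% and 18.5% of all genes did so in these directions. At an unadjusted p under 0.05 were 20 of the 52 enzymes, where 30.5% of all genes were. With library sizes alone in place of the scaling factors, 1218 genes were called higher and 161 lower, against 637 and 242, and Gstm2 joined the higher enzymes.

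Cyp3a13 (ENSMUSG00000029727, chr5:137892932-137921619, minus strand; GRCm38), an intestinal enzyme of the drug-oxidising Cyp3a subfamily, had 74.0, 136 and 103 CPM in TNFdARE ileum and 219.6, 247 and 267 CPM in WT ileum. Every TNFdARE library lay below every WT library, and the log2 fold change was -1.22 ± 0.22 (SE; adjusted p = 0.0411). Cyp3a13 is an enzyme of enterocytes, and in whole tissue fewer enterocytes and less of its RNA per enterocyte cannot be told apart. The other Cyp3 enzymes were not called. Cyp3a25 had 13.8, 67.7 and 35.7 CPM in TNFdARE and 64.2, 66.0 and 79.3 CPM in WT ileum, with TNFdARE replicate 2 inside the WT range. Cyp3a11, the main Cyp3a enzyme of mouse liver, had 1.96, 23.0 and 10.3 CPM in TNFdARE and 22.6, 21.1 and 17.6 CPM in WT ileum, and replicate 2 was again the TNFdARE library that reached the WT level.

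Cyp4b1 (ENSMUSG00000028713, chr4:115624725-115647723, minus strand), a P450 known for activating protoxins in lung, fell furthest of the called enzymes. It had 2.66, 7.67 and 3.80 CPM in TNFdARE ileum and 25.1, 26.0 and 24.8 CPM in WT ileum, a log2 fold change of -2.42 ± 0.37 (adjusted p = 0.0404). The groups were far apart, and the WT libraries differed by little among themselves. Cyp4f14 had lower values in all 3 TNFdARE libraries than in any WT library but did not pass the threshold, at -0.88 ± 0.23 (adjusted p = 0.0701), and Cyp4f40 had -0.50 ± 0.20 (adjusted p = 0.146). Cyp4f16, a neighbour of both on chromosome 17, had 118, 155 and 112 CPM in TNFdARE and 95.8, 123 and 101 CPM in WT ileum, with overlapping groups.

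Cyp4f18 (ENSMUSG00000003484, chr8:71988482-72009626, minus strand), which oxidises a leukotriene in mouse neutrophils, went the other way. It had 38.7, 11.3 and 27.2 CPM in TNFdARE ileum and 4.51, 3.36 and 5.91 CPM in WT ileum, a log2 fold change of 2.49 ± 0.49 (adjusted p = 0.0472). The 3 TNFdARE libraries differed among themselves by more than the WT libraries did, in the same order as the summed myeloid markers given above. Among these markers S100a8 had 60.3, 5.21 and 26.5 CPM in TNFdARE and 0.139, 0 and 0.141 CPM in WT ileum, and Csf3r, the receptor of a neutrophil growth factor, 239, 55.8 and 143 CPM in TNFdARE and 5.97, 3.87 and 3.24 CPM in WT. All 8 myeloid markers were higher in each TNFdARE than in each WT ileum library, and 5 of the 8 were called. Their part in the Cyp4f18 result was not tested.

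Gsta3 (ENSMUSG00000025934, chr1:21240589-21265661, plus strand), an alpha-class transferase known in mice for conjugating aflatoxin epoxide, had 19.7, 17.6 and 16.2 CPM in TNFdARE ileum and 7.01, 9.49 and 7.74 CPM in WT ileum. The groups were well separated, and the log2 fold change was 1.15 ± 0.16 (adjusted p = 0.0389). Unlike Cyp4f18, Gsta3 was no lower in TNFdARE replicate 2 than in replicate 3. Gsta4, which conjugates the lipid peroxidation product hydroxynonenal, had 24.2, 33.1 and 33.2 CPM in TNFdARE and 17.4, 26.0 and 22.2 CPM in WT ileum, and Gsta1 had 9.31, 6.83 and 5.48 CPM in TNFdARE and 7.29, 10.3 and 7.74 CPM in WT; neither was called. For Gsta1, 80.6% of the 100-base windows occur in another annotated gene, so its counts are uncertain.

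The promoters of both enzymes that rose in the ileum hold a match to TGACNNNGC, the core of the antioxidant response element, and they are shown for that reason. The sequences are the 250 bases before the start of the gene in RefSeq, build GRCm38.p6, 5′ to 3′ on the strand of the gene, with the match in capitals.
Gsta3 (chr1:21240335-21240584, plus strand): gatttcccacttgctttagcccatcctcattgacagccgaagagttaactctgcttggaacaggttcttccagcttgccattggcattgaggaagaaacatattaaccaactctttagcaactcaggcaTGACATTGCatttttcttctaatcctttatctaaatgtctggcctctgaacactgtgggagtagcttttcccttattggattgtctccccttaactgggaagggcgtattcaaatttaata
Cyp4f18 (chr8:72009627-72009876, minus strand): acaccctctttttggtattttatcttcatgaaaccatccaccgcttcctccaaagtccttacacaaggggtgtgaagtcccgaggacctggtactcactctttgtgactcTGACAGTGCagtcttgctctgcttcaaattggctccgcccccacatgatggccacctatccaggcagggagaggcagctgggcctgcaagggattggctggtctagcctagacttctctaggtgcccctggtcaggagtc
Both strands of such windows were searched. Of 102 enzymes with an entry in the RefSeq promoter table, 5 held the motif (Cyp4f14, Cyp4f18, Gsta3, Gstm5 and Gstm7), which is 4.90%, against 11.5% of all 27025 genes. A match describes these letters only. Cyp4f14, Gstm5 and Gstm7 carry it as well and did not rise in the ileum.

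The remaining conjugating enzymes of the ileum were not called. Sult1d1 had 47.0, 126 and 77.9 CPM in TNFdARE and 165, 217 and 178 CPM in WT ileum, with no overlap (-1.15 ± 0.35, adjusted p = 0.0964). Sult1b1, which sulfates thyroid hormones and phenols, had 61.8, 156 and 96.6 CPM in TNFdARE and 159, 182 and 176 CPM in WT ileum, where TNFdARE replicate 2 came within 3 CPM of WT replicate 1. Ugt1a1, the bilirubin-conjugating enzyme, had 18.7, 27.0 and 19.4 CPM in TNFdARE and 29.8, 44.1 and 31.0 CPM in WT ileum (-0.68 ± 0.21, adjusted p = 0.0891). Ugt2b34 had -0.44 ± 0.14 (adjusted p = 0.0926), without overlap. Ugt2b35, which lies close by on chromosome 5, had 32.4, 37.0 and 37.0 CPM in TNFdARE and 35.3, 37.1 and 33.7 CPM in WT ileum, a log2 fold change of 0.01 ± 0.09. Ugt2b5 had 3.86, 10.4 and 3.23 CPM in TNFdARE and 11.1, 14.01 and 12.2 CPM in WT ileum, lower without overlap (adjusted p = 0.160). Gstt3 had 15.8, 26.1 and 21.9 CPM in TNFdARE and 25.1, 27.7 and 29.7 CPM in WT ileum, and Gstt2 had 18.5, 20.7 and 20.7 CPM in TNFdARE and 24.7, 21.8 and 18.2 CPM in WT, both with overlap. Gstp1 (57.9, 58.1 and 62.4 CPM in TNFdARE and 58.4, 58.7 and 56.4 CPM in WT) and the theta-class enzyme Gstt1 (13.5, 13.2 and 11.0 CPM in TNFdARE and 13.3, 10.4 and 14.1 CPM in WT) also overlapped. Gstm1 and Gstm2 had higher values in every TNFdARE than in every WT ileum library, with 0.50 ± 0.16 for Gstm1 (adjusted p = 0.105) and 0.27 ± 0.08 for Gstm2 (adjusted p = 0.0868).

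Cyp2 enzymes gave no call in the ileum. Cyp2c55, which oxidises arachidonic acid, had 88.7, 233.98 and 104 CPM in TNFdARE and 87.6, 659 and 94.9 CPM in WT ileum, so WT replicate 2 alone set the mean of its group. The log2 fold change was -0.97 ± 0.90, and without WT replicate 2 it was 0.64 (adjusted p = 0.431). Sult1a1 shared this pattern, with 7.91, 7.18 and 7.59 CPM in TNFdARE ileum and 5.76, 32.8 and 8.65 CPM in WT ileum. Its log2 fold change was -1.05 with WT replicate 2 and 0.07 without it. Cyp2c65 had 13.7, 41.5 and 16.3 CPM in TNFdARE and 42.2, 96.8 and 41.9 CPM in WT ileum (-1.34 ± 0.55, adjusted p = 0.168). Cyp2d26 had 7.22, 32.0 and 8.29 CPM in TNFdARE and 37.7, 60.3 and 60.9 CPM in WT ileum, with TNFdARE replicate 2 closest to WT. Cyp2j6 had 62.6, 82.3 and 51.2 CPM in TNFdARE and 81.9, 105 and 71.1 CPM in WT ileum, with overlap. Of 12 Cyp2 enzymes that passed the filter, Cyp2w1 alone had higher values in every TNFdARE library, at 4.75, 5.07 and 6.75 CPM against 1.39, 4.01 and 2.88 CPM in WT ileum (adjusted p = 0.133).

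The ileum calls rested on few libraries. Cyp3a13, Cyp4b1, Cyp4f18 and Gsta3 kept their direction in every alternative and kept none of the calls without TNFdARE replicate 3 (adjusted p = 0.155 for all 4) or without any 1 WT library (adjusted p between 0.150 and 0.175), and Cyp4f18 also lost its call without TNFdARE replicate 1 (adjusted p = 0.0673). Without TNFdARE replicate 2, 19 enzymes were lower and 4 higher, where 12.8% and 16.5% of all genes were called in these directions. Among them were Cyp4f14 (-1.20, adjusted p = 0.000385), Ugt2b34 (-0.57, 0.00721), Sult1b1 (-1.11, 0.00966), Ugt2b5 (-1.79, 0.000895), Cyp4f40 (-0.75, 0.00122), Sult1d1 (-1.56, 0.0108), Ugt1a1 (-0.86, 0.0145) and Cyp2d26 (-2.76, 0.00118), all lower, and Gstm1 (0.59, 0.0412), which was higher. With the replicate number as a block, Cyp2c65 (-1.39, adjusted p = 0.0112), Cyp2j6 (-0.40, 0.0398), Sult1d1 (-1.25, 0.0437) and Ugt1a1 (-0.68, 0.0234) were lower as well, which made 6 lower enzymes and 2 higher, where 1.79% and 5.51% of all genes were called. Cyp2c65 was not called without TNFdARE replicate 2 (-1.99, 0.0601) or without WT replicate 2 (-0.82, 0.374). With limma-voom, the sex covariate and FPKM the 4 calls ended too (adjusted p between 0.0582 and 0.1004), and without the filter that of Cyp4f18 ended (0.0847).

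Enterocyte markers had lower values in the same libraries. The 12 markers summed to 7732, 14982 and 10828 CPM in TNFdARE ileum and 19532, 19836 and 20971 CPM in WT ileum, a ratio of means of 0.556, and the 120 enzymes had a ratio of 0.660. Of 11 enterocyte markers tested, Mttp was called lower and none higher, 6 had no overlap on the lower side, and no marker had a group mean of 0 in the ileum. The 8 epithelial markers had a ratio of 0.783, with 7 lower without overlap and none called. Set against the summed enterocyte markers of the same library, all enzymes together amounted to 23.3%, 19.4% and 18.4% in TNFdARE replicates 1, 2 and 3, and to 14.998%, 20.3% and 15.2% in WT. Cyp3 enzymes amounted to 1.17%, 1.54% and 1.40% in TNFdARE and 1.61%, 1.70% and 1.76% in WT ileum. Gsta enzymes amounted to 0.689%, 0.384% and 0.508% in TNFdARE and 0.162%, 0.232% and 0.180% in WT ileum.

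The 52 enzymes can be divided by whether the synovium holds them. Of 22 enzymes tested in the ileum and too low to be tested in the synovium, 20 had a negative log2 fold change, with a median of -0.82, and 12 were lower without overlap, which 18.5% of all genes were. Cyp2w1 and Ugt2b35 had positive ones. None of the 22 was called higher or lower. The 18.5% covers all genes tested in the ileum, and other genes too low for a test in the synovium were not set apart. Of 30 enzymes tested in both tissues, 16 had a negative and 14 a positive fold change in the ileum, with a median of -0.06. All enzymes called in the ileum, 2 lower and 2 higher, were among these 30. This is a description of the members, and the part that enterocyte content has in it was not tested.

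**Figure D3:**
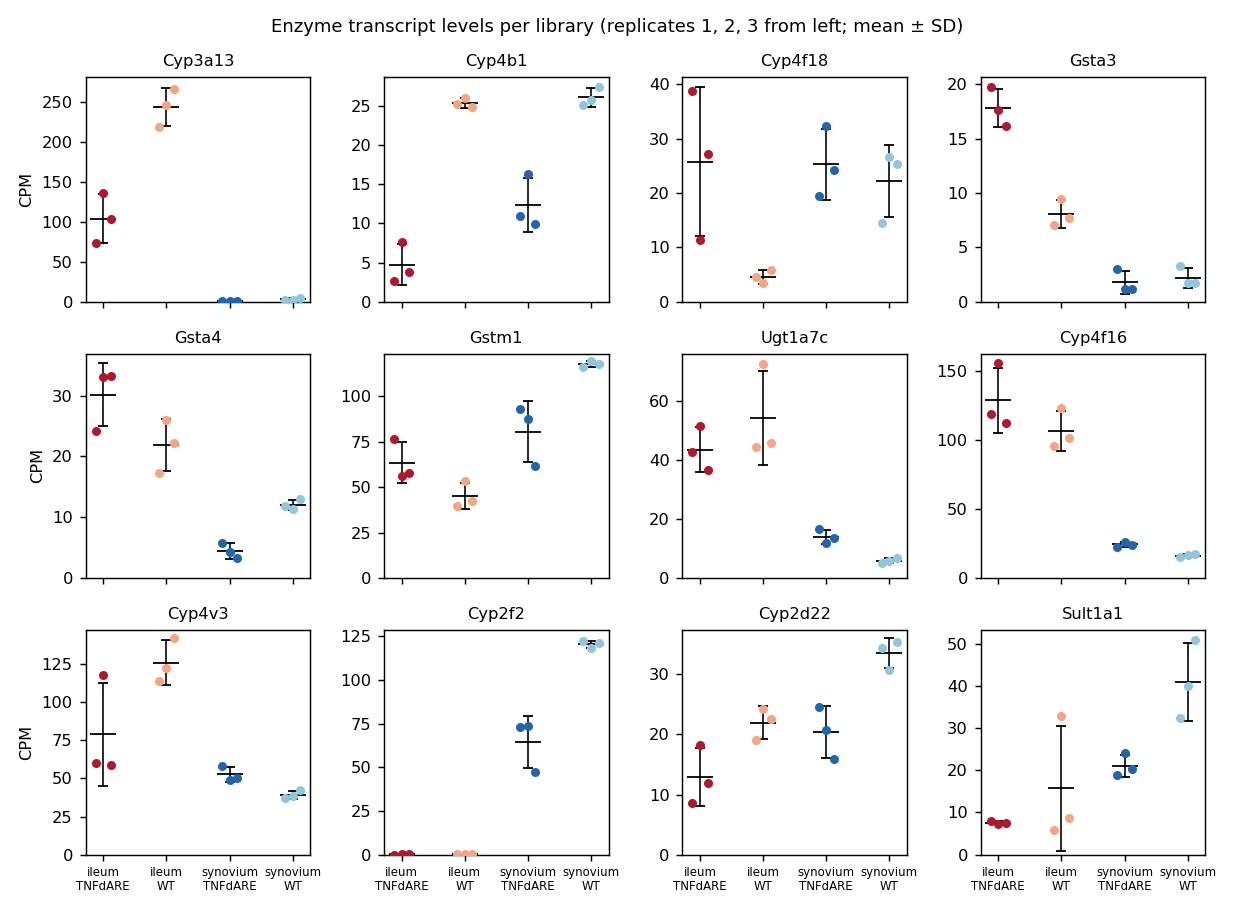
Level in CPM of 12 called enzymes in every library, with groups side by side and a line at the mean of 3 libraries. Each panel has its own axis from 0. Cyp3a13 and Cyp4b1 are lower in TNFdARE than in WT mice in both tissues, although Cyp3a13 in the synovium, at 0.601 to 4.35 CPM, lies close to the axis.

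The comparison of TNFdARE with WT synovium asks the same of the inflamed joint. Of 33 enzymes tested there, 4 were higher in TNFdARE synovium (Cyp2ab1, Cyp4f16, Cyp4v3 and Ugt1a7c), 7 were lower (Cyp2d22, Cyp2f2, Cyp3a13, Cyp4b1, Gsta4, Gstm1 and Sult1a1) and 22 were not called. Among all 15599 genes tested, 13.1% were called higher and 10.7% lower, so 4 of 33 higher is near the background and 7 of 33 lower is above it. The median log2 fold change was -0.26 over the 33 enzymes and 0.00 over all genes. Without overlap between the genotypes 5 enzymes were higher and 15 lower, where 21.2% and 22.8% of all genes were. The direction of each call below is the one in all 6 fits that leave out a library.

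Cyp4b1 and Cyp3a13 fell in the synovium as they did in the ileum. Cyp4b1 had 10.9, 16.3 and 9.87 CPM in TNFdARE synovium and 25.0, 25.7 and 27.4 CPM in WT synovium, a log2 fold change of -1.05 ± 0.19 (adjusted p = 0.00842). Its WT mean was 25.3 ± 0.592 CPM in the ileum and 26.0 ± 1.19 CPM in the synovium (SD, n = 3 each). Cyp3a13 was scarce in the synovium, with 0.601, 1.15 and 0.987 CPM in TNFdARE and 2.56, 2.14 and 4.35 CPM in WT, and still separated the groups (-1.69 ± 0.39, adjusted p = 0.0216). The call of Cyp3a13 ended with FPKM at pseudocount 1 (-0.43, adjusted p = 0.0515) and without TNFdARE replicate 1 or 3 or without WT replicate 3 (adjusted p between 0.0553 and 0.0677). The effect in the ileum minus that in the synovium was -1.35 ± 0.43 for Cyp4b1 (adjusted p = 0.0643) and 0.49 ± 0.45 for Cyp3a13 (adjusted p = 0.516), and neither passed.

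Of 8 Cyp2 enzymes tested in the synovium, Cyp2f2 and Cyp2d22 fell and Cyp2ab1 rose. Cyp2f2 (ENSMUSG00000052974, chr7:27119909-27133660, plus strand) had the values given above, a log2 fold change of -0.88 ± 0.16 (adjusted p = 0.0118), with TNFdARE replicate 3 the lowest library. Cyp2d22 (ENSMUSG00000061740, chr15:82370527-82380260, minus strand), of the drug-oxidising Cyp2d subfamily, had 24.6, 20.8 and 15.97 CPM in TNFdARE and 34.5, 30.7 and 35.4 CPM in WT synovium (-0.69 ± 0.15, adjusted p = 0.0183). That call ended in the fit of all 12 libraries (adjusted p = 0.0508) and without WT replicate 1 or 3 (adjusted p = 0.0522 and 0.0660). Cyp2e1, which oxidises ethanol and acetone, had 27.7, 31.7 and 10.6 CPM in TNFdARE and 57.3, 74.2 and 54.0 CPM in WT synovium (-1.39 ± 0.41, adjusted p = 0.0607). Cyp2e1 was called in 7 of 10 other alternatives, among them the replicate block (-1.48, adjusted p = 0.0251), DESeq2 (-1.39, 0.000351) and limma-voom (-1.52, 0.0400). Of the 6 fits that left out a library it was called in 1, without TNFdARE replicate 3 (-1.04, 0.0137). Cyp2j9 was called with the block (-0.71, 0.0316), with the sex covariate (-0.71, 0.0424) and in the fit of all 12 libraries (-0.72, 0.0310). Cyp2ab1 (ENSMUSG00000022818, chr16:20308387-20325404, minus strand) had 2.58, 5.02 and 3.66 CPM in TNFdARE and 1.18, 1.82 and 1.95 CPM in WT synovium (1.20 ± 0.33, adjusted p = 0.0387). Its call remained only without TNFdARE replicate 1 among the 6 fits that left out a library (adjusted p between 0.0753 and 0.106 in the other 5), and it ended with the sex covariate (0.0569).

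Ugt1a7c (ENSMUSG00000090124, chr1:88095062-88220002, plus strand) had the smallest adjusted p of the enzymes in the synovium. It had 16.6, 11.9 and 13.5 CPM in TNFdARE and 5.05, 5.98 and 6.69 CPM in WT synovium, a log2 fold change of 1.26 ± 0.18 (adjusted p = 0.00353). Genes of the Ugt1a locus each have a first exon of their own and share the remaining exons, and 51.6% of the 100-base windows of Ugt1a7c occur in another Ugt1a gene, so reads can be assigned among them uncertainly. Ugt1a6a, with 1.68, 1.21 and 1.57 CPM in TNFdARE and 0.346, 1.04 and 0.390 CPM in WT synovium, also had higher values without overlap (adjusted p = 0.0733), while Ugt1a6b, with 0.240, 0.462 and 0.465 CPM in TNFdARE and 0.899, 0.779 and 0.715 CPM in WT, had lower ones (adjusted p = 0.109). The whole Ugt1 family summed to 18.7, 14.1 and 15.7 CPM in TNFdARE and 6.64, 7.92 and 8.06 CPM in WT synovium. Dividing reads differently among its genes would not change this sum. Leaving out reads that match several genes would change it, and how such reads were treated is not given.

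A pair of Cyp4 enzymes rose modestly in the synovium. Cyp4f16 (ENSMUSG00000048440, chr17:32536558-32551798, plus strand) had 22.5, 26.3 and 24.3 CPM in TNFdARE and 15.4, 16.5 and 17.2 CPM in WT synovium (0.60 ± 0.10, adjusted p = 0.00746). Cyp4v3 (ENSMUSG00000079057, chr8:45304944-45333216, minus strand), a fatty acid hydroxylase whose human counterpart is mutated in a retinal dystrophy, had 58.3, 49.3 and 50.4 CPM in TNFdARE and 37.1, 38.3 and 42.2 CPM in WT synovium (0.45 ± 0.09, adjusted p = 0.0147). The Cyp4v3 call ended in the fit of all 12 libraries (adjusted p = 0.230). Cyp4f18, which rose in the ileum, overlapped in the synovium, with 19.4, 32.3 and 24.2 CPM in TNFdARE and 14.5, 26.7 and 25.4 CPM in WT. There S100a8 averaged 636 ± 430.2 CPM in TNFdARE against 524 ± 301 CPM in WT, and Csf3r 102 ± 29.5 CPM in TNFdARE against 128 ± 30.6 CPM in WT (SD, n = 3 each). The 8 myeloid markers together went the other way than Csf3r, with 7117 ± 354 CPM in TNFdARE against 3165 ± 1028 CPM in WT synovium. Of the 8, 5 were called higher and none lower, where 13.1% of all genes were called higher. How these markers bear on Cyp4f18 was not tested.

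Conjugating enzymes of the synovium that were called were lower apart from Ugt1a7c. Gsta4 (ENSMUSG00000032348, chr9:78182774-78209349, plus strand) had 5.83, 4.33 and 3.25 CPM in TNFdARE and 11.8, 11.4 and 12.9 CPM in WT synovium, with every TNFdARE library well below every WT library. The log2 fold change of Gsta4 was -1.41 ± 0.22 (adjusted p = 0.00478). Sult1a1 (ENSMUSG00000030711, chr7:126672865-126676432, minus strand) had 18.8, 24.0 and 20.4 CPM in TNFdARE and 32.3, 39.9 and 50.8 CPM in WT synovium (-0.94 ± 0.18, adjusted p = 0.0124), a call that ended without TNFdARE replicate 3 (adjusted p = 0.0526) and in the fit of all 12 libraries (0.188). Gstm1 (ENSMUSG00000058135, chr3:108012255-108017973, minus strand) had 92.9, 87.4 and 61.6 CPM in TNFdARE and 116, 119 and 118 CPM in WT synovium (-0.53 ± 0.14, adjusted p = 0.0382), and that call ended without TNFdARE replicate 2 and without each WT library in turn (adjusted p between 0.0621 and 0.104). Gstm2, its neighbour on chromosome 3, had 34.3, 27.1 and 30.6 CPM in TNFdARE and 28.7, 30.1 and 33.4 CPM in WT synovium, with overlap. Gstp1 (21.7, 19.8 and 19.7 CPM in TNFdARE and 27.0, 21.8 and 23.3 CPM in WT) and Gstt1 (25.0, 20.1 and 18.2 CPM in TNFdARE and 21.9, 18.6 and 25.8 CPM in WT) were not called. Cyp2f2, Cyp4b1, Cyp4f16, Gsta4 and Ugt1a7c kept their calls in all 6 fits that left out a synovium library and in all 10 other alternatives.

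Markers of fat, muscle and vessels, tissues that lie in or next to the synovium, had lower sums in the same libraries. All 8 adipocyte markers fell in TNFdARE synovium, and they summed to 1110.0, 1439 and 883 CPM in TNFdARE and 2343, 2229.5 and 2873 CPM in WT, a ratio of 0.461. Skeletal muscle markers had a ratio of 0.315 (1 of 8 called lower, all 8 lower without overlap) and smooth muscle markers of 0.507 (4 of 8 called lower). Endothelial markers had a ratio of 0.811 (5 of 8 called lower). Myeloid markers had a ratio of 2.25, with 5 of 8 called higher. None of these markers had a group mean of 0. Their part in the lower Cyp2f2, Cyp4b1, Gsta4 and Sult1a1 was not tested.

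The difference of the TNFdARE effect between the tissues was tested as an interaction in the model of 12 libraries. Of 55 enzymes, 4 had a higher log2 fold change in the ileum than in the synovium (Cyp2ab1, Cyp4f18, Gsta4 and Gstm1) and Ugt1a7c had a lower one. Among all 16964 genes tested, 6.80% were called in the higher and 5.28% in the lower direction. The enzymes' shares cannot be read against this background, because 22 of the 55 were too low to be tested in the synovium. For many of these the SE far exceeded the difference, as for Ugt2b34 (-0.44 ± 496), which left no room for a call. With library sizes alone, 1380 genes were called in the higher and 626 in the lower direction, against 1154 and 896. Gsta4 differed by 1.90 ± 0.30 (adjusted p = 0.00481), made up of 0.47 in the ileum and -1.41 in the synovium. Ugt1a7c differed by -1.55 ± 0.31 (adjusted p = 0.0120), with -0.31 in the ileum, where 42.7, 51.6 and 36.6 CPM in TNFdARE overlapped 44.4, 72.8 and 45.7 CPM in WT, and 1.26 in the synovium. Both calls held in all 12 fits that left out a library and in the other 7 alternatives. Gstm1 differed by 1.05 ± 0.24 (adjusted p = 0.0215), with 76.5, 56.3 and 57.8 CPM in TNFdARE and 39.9, 53.4 and 42.4 CPM in WT ileum. Without WT ileum replicate 1 or 3 the Gstm1 call ended (adjusted p = 0.0585 and 0.0592).

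Cyp4f18 differed by 2.31 ± 0.59 (adjusted p = 0.0326), and its call ended without a filter (adjusted p = 0.0692) and with limma-voom (0.102). It held in 3 of the 12 fits that left out a library, with adjusted p between 0.0521 and 0.0770 in the other 9. Cyp2ab1 differed by 4.23 ± 1.14 (adjusted p = 0.0446). Its ileum counts were 7, 3 and 5 in TNFdARE and 0 in all WT libraries, so the size of this difference depends on how a count of 0 is treated. Against the floor, Cyp2ab1 was at least 1.59-fold higher in TNFdARE ileum, and of 7 other alternatives only RLE factors kept its call. The call ended with the replicate block (adjusted p = 0.0542), with library sizes alone, without a filter, with DESeq2, limma-voom and the sex covariate (adjusted p between 0.0502 and 0.0843), and in 9 of the 12 fits that left out a library (0.0577 to 0.0925). With the replicate block, Gsta3 (1.52, adjusted p = 0.0125), Cyp2e1 (2.28, 0.0204) and Cyp2j9 (1.00, 0.0449) were also called in the higher direction and Cyp4b1 (-1.41, 0.0497) and Cyp4v3 (-1.16, 0.0475) in the lower.

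**Figure D4:**
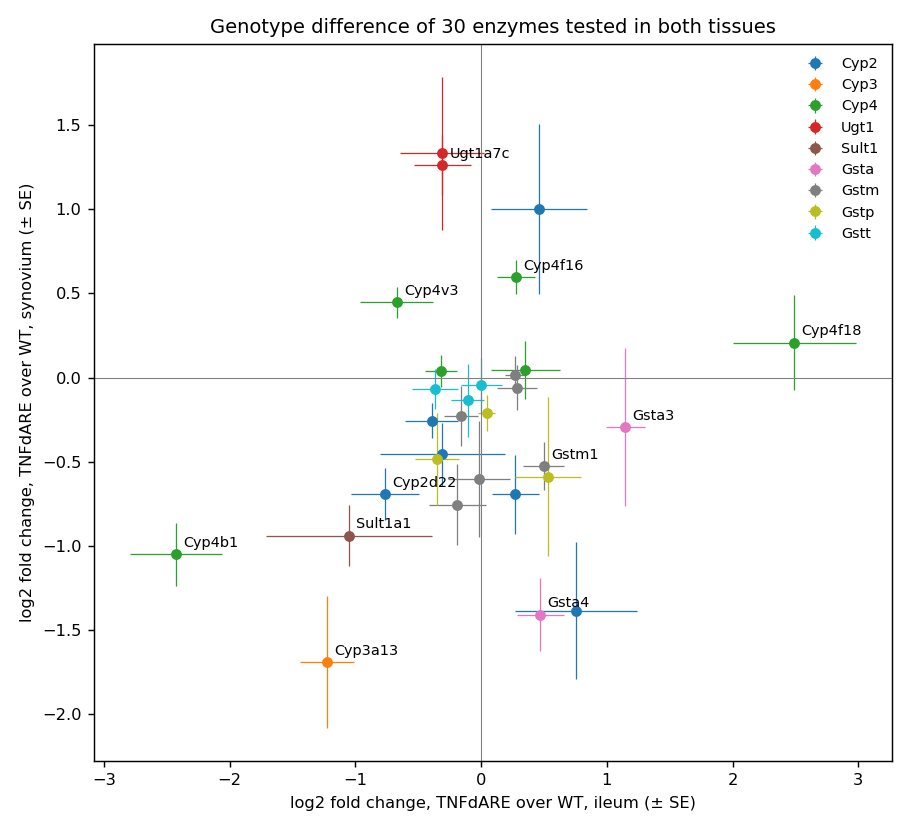
Log2 fold change of TNFdARE over WT in the ileum (horizontal axis) and in the synovium (vertical axis) for the 30 enzymes tested in both tissues, with bars of 1 SE and colours by family. Cyp3a13 and Cyp4b1 lie in the lower left, Gsta4 and Gstm1 in the lower right, and Ugt1a7c and Cyp4v3 in the upper left.

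Of the 30 enzymes tested in both tissues, 12 had negative fold changes in both, 5 positive in both, 9 were positive in the ileum and negative in the synovium, and 4 the reverse. The 9 were Cyp2e1, Cyp2j9, Gsta3, Gsta4, Gstm1, Gstm4, Gstp1, Gstp3 and Gstt1. Gstp1 and Gstt1 among them had fold changes in the ileum smaller than their SE (0.05 ± 0.07 and 0.00 ± 0.16). In the synovium this held for Gsta3 (-0.30 ± 0.47), Gstm4 (-0.06 ± 0.14) and Gstt1 (-0.05 ± 0.16). By family, Gsta enzymes summed to 53.3, 57.5 and 55.0 CPM in TNFdARE and 31.7, 46.0 and 37.8 CPM in WT ileum, with no overlap, and to 8.89, 5.54 and 4.41 CPM in TNFdARE and 15.1, 13.1 and 14.8 CPM in WT synovium, again with no overlap and in the other direction. Sult1 enzymes were lower in TNFdARE than in WT libraries of both tissues, at 119, 300.1 and 188 CPM in TNFdARE and 337, 442 and 370.3 CPM in WT ileum and 18.8, 24.1 and 20.4 CPM in TNFdARE and 33.2, 39.9 and 50.8 CPM in WT synovium. The Gstt sums, at 53.8 ± 6.13 CPM in TNFdARE against 61.8 ± 1.66 CPM in WT ileum and 42.7 ± 4.80 CPM in TNFdARE against 45.2 ± 5.99 CPM in WT synovium, had ratios of 0.871 and 0.945. No test was made of a family sum.

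Receptors that are known to control these enzymes were followed as a list of 14 genes. For this and the following lists, 4.12% of all genes tested were called higher and 1.57% lower in the ileum, and 13.1% higher and 10.7% lower in the synovium. In the ileum 1 was higher (Ahrr), none lower and 13 not called, with a median log2 fold change of -0.12. Ahrr, the repressor of the aryl hydrocarbon receptor, had 14.4, 11.9 and 12.4 CPM in TNFdARE and 6.60, 4.23 and 7.25 CPM in WT ileum (1.10 ± 0.22, adjusted p = 0.0447). The pregnane X receptor Nr1i2 had a mean of 85.4 ± 19.4 CPM in TNFdARE against 108 ± 7.05 CPM in WT ileum and was not called, and it had 0 counts in the synovium. In the synovium 3 of 10 were higher and 1 lower, with a median of -0.03. The 3 were Ahr, the aryl hydrocarbon receptor (55.3, 32.7 and 48.4 CPM in TNFdARE and 26.9, 20.9 and 19.9 CPM in WT, 1.03 ± 0.21, adjusted p = 0.0157), Nfe2l2, the regulator of antioxidant genes (0.41 ± 0.08, 0.00919), and the bile acid receptor Nr1h4, at 2.34, 1.56 and 2.32 CPM in TNFdARE and 0.138, 0.130 and 0.195 CPM in WT (3.70 ± 0.39, 0.00129). The WT values of Nr1h4 lay near the floor of 3 counts per library, so the size of its difference is uncertain. Over the alternatives its log2 fold change ranged from 1.07 to 3.90, and the call was kept. Ppara was lower (-1.58 ± 0.42, adjusted p = 0.0342) and is named to complete the count.

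The core motif of the aryl hydrocarbon receptor, GCGTG, stood in 20 of 102 enzyme promoters (19.6%, against 30.9% of all genes). CAAAGTCCA, a type of site read by the enterocyte and liver factor Hnf4a, stood in 10 of 102 (9.80%) and in 0.451% of all genes. All 10 were Cyp2c or Cyp3a genes, which arose by duplication and are not independent. Only Cyp2c65, Cyp2c68 and Cyp3a11 of the 10 had reads enough to be tested, all in the ileum, and none of the 10 passed the filter in the synovium. Hnf4a had a mean of 1056 ± 142 CPM in TNFdARE against 1265 ± 16.7 CPM in WT ileum. Its mean was 0.0393 ± 0.0340 CPM in TNFdARE against 0.177 ± 0.0417 CPM in WT synovium. Both synovium means lie under the floor of 3 counts per library. The windows of these 3 enzymes are shown as 60 bases around the match, in capitals (RefSeq, GRCm38.p6, strand of the gene).
Cyp2c65 (chr19:39060864-39060923, plus strand): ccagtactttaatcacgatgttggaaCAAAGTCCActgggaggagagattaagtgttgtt
Cyp2c68 (chr19:39741145-39741204, minus strand): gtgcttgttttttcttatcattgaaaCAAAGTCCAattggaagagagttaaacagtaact
Cyp3a11 (chr5:145879930-145879989, minus strand): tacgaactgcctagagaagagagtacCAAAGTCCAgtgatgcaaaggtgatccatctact
The match begins 116 bases before the RefSeq start in Cyp2c65, 77 in Cyp2c68 and 109 in Cyp3a11. In GENCODE the Cyp3a11 gene starts further upstream, at chr5:145879964, so its match lies inside that gene.

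Partners of the first, oxidising phase formed a second list. Of 19 tested in the synovium, 8 were lower and 1 higher, and the median log2 fold change was -0.64. Fmo2 and Fmo1, flavin monooxygenases, had 30.5, 43.2 and 28.0 CPM of Fmo2 in TNFdARE and 80.9, 73.2 and 103 CPM in WT synovium (-1.32 ± 0.21, adjusted p = 0.00691) and 45.6, 49.9 and 36.1 CPM of Fmo1 in TNFdARE and 77.4, 78.5 and 79.6 CPM in WT (-0.82 ± 0.12, 0.00383). Cyp1b1, a P450 of the aryl hydrocarbon receptor battery, had 179, 144 and 158 CPM in TNFdARE and 275, 227 and 262 CPM in WT synovium (-0.65 ± 0.11, adjusted p = 0.00629). In the ileum 1 of 24 partners was lower and none higher, with a median of -0.46. It was Cyb5b, a cytochrome b5 that passes electrons, with 356, 396 and 350.4 CPM in TNFdARE and 474, 489 and 487 CPM in WT (-0.39 ± 0.08, adjusted p = 0.0461).

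Genes that supply the conjugating enzymes had a median log2 fold change of -0.25 in the ileum and 0.03 in the synovium. In the ileum 2 of 13 were lower and none higher: Bpnt1, which clears the by-product of sulfation (-0.47 ± 0.10, adjusted p = 0.0449), and Slc35d1, which carries the glucuronic acid donor into the endoplasmic reticulum (-0.60 ± 0.12, 0.0459). In the synovium 3 of 13 were higher and 2 lower. Slc7a11, which imports cystine for glutathione, had 16.6, 8.71 and 9.53 CPM in TNFdARE and 3.53, 2.40 and 2.86 CPM in WT (2.00 ± 0.29, adjusted p = 0.00415). Gclm, a subunit of the enzyme that starts glutathione synthesis, had 0.52 ± 0.12 (0.0183), and Ugdh, which makes the glucuronic acid donor, was lower at -0.50 ± 0.09 (0.00848). Of 11 other conjugating enzymes tested in each tissue, with medians of -0.31 in the ileum and -0.27 in the synovium, Sult2b1, a cholesterol sulfotransferase, was lower in the ileum (-0.61 ± 0.11, 0.0411), and in the synovium Gstz1 (-0.59 ± 0.09, 0.00426) and Gstk1 (-0.61 ± 0.18, 0.0472) were lower.

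Transporters were higher in both tissues where they were called in the ileum. Of 12 tested in the ileum 2 were higher and none lower, and of 11 in the synovium 5 were higher and 2 lower, with medians of 0.23 and 0.35. Abcb1b, a drug efflux pump, had 10.2, 4.37 and 8.08 CPM in TNFdARE and 2.08, 2.26 and 2.96 CPM in WT ileum (1.64 ± 0.34, adjusted p = 0.0471) and 31.8, 29.7 and 31.2 CPM in TNFdARE and 13.6, 13.5 and 17.6 CPM in WT synovium (1.07 ± 0.13, adjusted p = 0.00194). The uptake carrier Slco3a1 had 1.22 ± 0.18 in the ileum (adjusted p = 0.0404) and 0.52 ± 0.08 in the synovium (0.00581), and the exporter Abcc4 had 0.70 ± 0.11 in the synovium (0.00500). The transporters called lower in the synovium were Abcb1a (-0.52 ± 0.15, adjusted p = 0.0487) and Abcg2 (-0.63 ± 0.11, 0.00926), named to complete the count. In the synovium the calls of Slc7a11, Ugdh, Cyp1b1 and Gstk1 ended in the fit of all 12 libraries (adjusted p between 0.0687 and 0.292). Those of Ahr, Gclm and Gstk1 ended in 3, 2 and 4 of the 6 fits that left out a library, and those of Gclm and Gstk1 with FPKM. The ileum calls of Ahrr, Cyb5b, Bpnt1, Slc35d1, Sult2b1, Slco3a1 and Abcb1b ended without any 1 WT ileum library, as those of the enzymes did. Of the 6 fits that left out an ileum library, Slco3a1 kept its call in 2 and each of the others in 1. Of 10 other alternatives, Cyb5b was called in 3, Slc35d1 in 4, Bpnt1 in 5 and each of the rest in 6.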

How the data were processed

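Bulk RNA of ileum and ankle synovium was sequenced as poly-A selected, stranded, single reads of 100 cycles, per the labels' protocols. The authors deposited a table of raw counts per gene and a table of FPKM values, which scale fragments to gene length and library size. Bowtie2 2.3.3.1, cutadapt 1.15 and the mouse build GRCm38 are the names that the submitters' processing notes give. How reads were counted, and whether by strand, is not given in the sources used here, so reads of overlapping or antisense genes may not be separable. The FPKM table holds 17046 of the 46603 genes and was used for an alternative fit.

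From the counts, edgeR 4.0.16 (R 4.3.3) fitted each tissue's 6 libraries for TNFdARE against WT, and all 12 for the tissue contrasts and the interaction (ileum effect minus synovium effect). Genes were kept by filterByExpr, TMM factors scaled the libraries, and the robust quasi-likelihood F test gave two-sided p-values adjusted by Benjamini-Hochberg over every gene that passed, with calls at 0.05. CPM values use the TMM factors of all 12 libraries. CPM per kilobase divides by the union of exons in GENCODE M21 (GRCm38), which also gave positions and names (98.9% of gene IDs matched). Floors and intervals cover counting error only, because the reads carry no molecular identifiers.

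Alternatives were RLE factors, library size alone, no filter, DESeq2 1.42.0, limma-voom (limma 3.58.1), a replicate block, a sex covariate, a fit of all 12 libraries, the FPKM values as log2(value + 1) or log2(value + 0.1) with limma, on whose scale a fold change understates that of low genes, and leaving out each library. Same-numbered TNFdARE and WT libraries deviated together within the ileum (r = 0.234, 0.255 and 0.160 for numbers 1, 2 and 3) and the synovium (r = 0.613, 0.363 and 0.231), although for number 3 the highest correlation with another number was 0.156 in the ileum and 0.287 in the synovium, so blocked values are given where they change a call. Replicate libraries differed by more than counting noise (chi-square of 11.2 to 92.9 per gene), so none was counted as a copy.

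The members and lists were chosen with earlier results of these data known. Values are given for every enzyme called in a genotype comparison or the interaction, the leading enzymes of each family and tissue by mean CPM, the 3 largest WT tissue differences each way, Tnf, and up to 3 called genes of each partner list and tissue. Cyp2c65, Cyp2c68, Cyp2d26, Cyp2j9, Cyp2w1, Cyp3a11, Gsta1, Gstm5, Gstm7, Ugt1a6a, Hnf4a, Nr1i2, Ppara, Mttp, S100a8, Csf3r, Prg4, Abcb1a and Abcg2 lie outside that rule and were chosen after their values were seen. Promoters were searched in the RefSeq table of GRCm38.p6. Of the partner genes called, 1 is not reported here. The fits were tested on simulated data.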

Additional observations from a re-analysis of the deposited data

Results flagged for a closer look

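The TNFdARE effect on 5 enzymes differed between ileum and synovium by the interaction test of edgeR, with the effect in the ileum minus that in the synovium on the log2 scale. The difference was 1.90 for Gsta4 (adjusted p = 0.00481), 1.05 for Gstm1 (adjusted p = 0.0215), 2.31 for Cyp4f18 (adjusted p = 0.0326), 4.23 for Cyp2ab1 (adjusted p = 0.0446) and -1.55 for Ugt1a7c (adjusted p = 0.0120). The calls of Cyp4f18 and Cyp2ab1 each held in 3 of the 12 fits that left out a library, and in 5 and 1 of 7 other alternatives. The Cyp2ab1 difference rests on 0 counts in every WT ileum library. For Gsta4 all 3 TNFdARE synovium libraries lay below the WT ones, while in the ileum TNFdARE replicates 2 and 3 lay above all WT libraries and replicate 1 between them. For Gstm1 all 3 TNFdARE ileum libraries lay above and all 3 TNFdARE synovium libraries below their WT libraries. For Ugt1a7c all 3 TNFdARE synovium libraries lay above WT, and the ileum groups overlapped.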

How the results depend on the processing

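Counts of calls in the ileum depended most on the processing. Genes called higher and lower in TNFdARE ileum numbered 637 and 242, with 2 and 2 enzymes among them. They numbered 1680 and 1035 with DESeq2 (11 enzymes lower), 1827 and 895 in the fit of all 12 libraries (3 enzymes higher and 4 lower), 1218 and 161 with library sizes alone, and 0 and 0, with 0 enzymes, with limma-voom, the sex covariate and FPKM at either pseudocount, where edgeR without these changes had 4716 genes and 20 enzymes at an unadjusted p under 0.05. Without a filter 1 enzyme was higher. Leaving out 1 ileum library gave 0 to 2609 genes higher, 0 to 2024 lower, 0 to 4 enzymes higher and 0 to 19 lower. The synovium was steadier, with 2037 and 1676 genes and 4 and 7 enzymes, and 1265 to 1670, 863 to 1277, 3 to 5 and 4 to 7 when 1 library was left out. The interaction called 1154 and 896 genes and 4 and 1 enzymes. DESeq2 gave 1607 genes and 4 enzymes lower, limma-voom 746 genes higher with 2 and 3 enzymes, no filter 2 enzymes higher, and leaving out 1 library 484 to 1692 and 472 to 1814 genes and 1 to 4 and 1 to 6 enzymes. Enzymes lower in TNFdARE ileum than in TNFdARE synovium numbered 10, and 6 to 11 when 1 library was left out. With the replicate block the enzymes called lower numbered 6 in the ileum, 9 in the synovium and 3 in the interaction, as named above, and enzymes called higher and lower in the tissue contrasts 37 and 13 in WT and 37 and 10 in TNFdARE. Calls over all genes rose with the block in both genotype comparisons and in the interaction. Genes called lower numbered 276 in the ileum (242 without it), 2401 in the synovium (1676) and 1037 in the interaction (896). In the tissue contrasts they fell slightly. There 6098 and 6446 genes were called higher and lower in WT with the block (6114 and 6481 without it). In TNFdARE they numbered 5910 and 5327 (5945 and 5366 without it). Library sizes alone moved the median log2 fold change of all genes to 0.11 in the ileum and -0.17 in the WT tissue contrast. The cause of these differences was not tested.

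Signs turned only for results that were not called. In the ileum Gstt2 had 0.00128 with library sizes alone. Gstt1 had -0.00301 without a filter, -0.000773 in the fit of all 12 libraries, -0.163 and -0.181 with FPKM, and -0.122 to 0.0927 without 1 library. Ugt2b35 had -0.0288 and -0.0316 with FPKM and -0.0260 to 0.0799 without 1 library, Cyp2c55 -1.53 to 0.64 and Sult1a1 -1.45 to 0.0722, the highest without WT replicate 2. In the synovium Gstm2 had -0.0116 in the fit of all 12 libraries and -0.0740 to 0.0979 without 1 library, Gstt2 0.0419 and 0.0560 with FPKM and -0.312 to 0.131 without 1 library, Gstt3 0.0241 and 0.0284 with FPKM, and without 1 library Cyp4f18 had -0.0310 to 0.362, Gstt1 -0.187 to 0.0867, and Gsta3 -0.905 to 0.0759. In the interaction Cyp2d22 had 0.0171 with library sizes alone and -0.465 to 0.112 without 1 library, and Sult1a1 had 0.336 with limma-voom, 0.257 with the replicate block and -0.560 to 0.970 without 1 library.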

Other observations

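Enzymes below the filter had values too low for a test. Cyp4f37 had 6, 3 and 1 counts in TNFdARE ileum and 0 in WT ileum, at least 1.06-fold higher against the floor of 3 counts per library, and 1, 2 and 1 counts in TNFdARE synovium and 0 in WT synovium. Sult1e1, which sulfates oestrogens, had 0 counts in 11 libraries and 11 counts in WT synovium replicate 1. Cyp2b10, known in mouse liver as a target of the receptor Nr1i3, had 3, 3 and 2 counts in TNFdARE ileum, 3, 1 and 3 in WT ileum and 0 in all 6 synovium libraries. Cyp2c29, Cyp2c37, Cyp2c40 and Cyp4a12a, known from mouse liver, had 0 counts in all 12 libraries, which allows up to 3 counts in each. These enzymes were chosen after their values were seen.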
